A study of Homo sapiens with 9 samples.

Results

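The baseline transcriptome described here is that of ALL-SIL cells that received a control siRNA. ALL-SIL is an established human line of T cell acute lymphoblastic leukemia (T-ALL) with a translocation that places the homeobox gene *TLX1* next to a T cell receptor locus, and it carries a *NUP214*-*ABL1* fusion. Arrays were chosen by their treatment label alone, which gave 3 of 9 arrays with control siRNA. These cells were electroporated with 400 nM of a non-targeting siRNA, and the other 6 arrays, used only for comparison, held cells electroporated with *PHF6* siRNA1 (3 arrays) or *PHF6* siRNA2 (3 arrays). The labels give collection at 96 h for all 9 samples, whereas the free text beside them gives 72 h. Each array carried RNA from 1 of 3 replicates that the submitters call independent, and in every group replicates 1 and 2 were on 1 slide and replicate 3 was on another. Cells that had not been electroporated were not among these samples, so every value below belongs to cells after electroporation, and with RNA from whole cultures fewer cells expressing a gene and less RNA per cell cannot be told apart.

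T-ALL arises from immature T cells that stop maturing in the thymus. Its subtypes are named after the transcription factor that is switched on out of place, such as *TLX1*, *TLX3*, *TAL1* with its partners *LMO1* and *LMO2*, the *HOXA* cluster or the *NKX2* genes, and *TLX1* cases resemble thymocytes of the cortex, which carry CD1 molecules and rearrange their receptor genes. Activated NOTCH1 signalling and loss of cell cycle inhibitors are frequent in this disease, and *PHF6* is a chromatin-associated tumour suppressor that many cases lose.

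A probe was called present when the scanner software flagged it as well above background on all 3 control arrays. This held for 28918 of 57176 probes (50.6%). Of the 34134 probes of the standard design 22099 (64.7%) were present, compared with 6819 of the 23042 custom probes for long non-coding RNAs (29.6%). Control replicates 1, 2 and 3 had 31847, 30225 and 32614 probes well above background, so replicate 2 had the fewest. The control arrays averaged 31562 such probes and the *PHF6* siRNA arrays 32432 (control minus siRNA -870.2), a difference within the spread between arrays (two-sided exact permutation test over 84 splits, p = 0.381; smallest possible p = 0.0119). Of the 308 negative control spots on each array, 1, 3 and 6 carried the same flag.

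Values are the deposited normalized intensities on a log2 scale, so 1 unit is a doubling of signal. Probes above background on no control array lay at a median of 4.72, with 95% of them between 4.44 and 5.06, and this is the floor of the scale. Present probes ran from 5.04 to 18.97 with a median of 8.30. The top of this range was thin, with 444 probes at 16 or more and 46 at 18 or more, and 5254 present probes (18.2%) lay below 6, close to the floor. Probes differ in how well they bind their target, so a rank orders signals and not the abundance of transcripts.

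**Figure D1:**
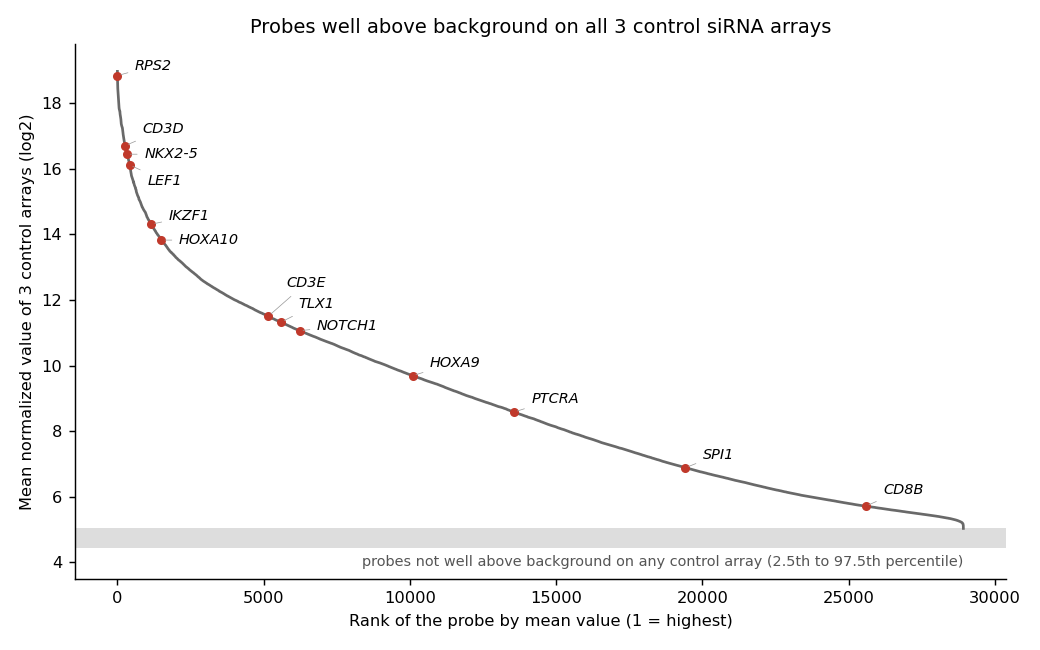
Mean normalized value (log2, vertical axis) of the 28918 present probes against their rank (horizontal axis, 1 is the highest), with the brightest probe of 13 genes marked by red points. The grey band holds 95% of the probes that were well above background on no control array (4.44 to 5.06), and *TLX1*, *CD3E* and *NOTCH1* sit between ranks 5161 and 6226.

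Gene symbols could be given to 25728 probes of the standard design, which stand for 19722 symbols, of which 13590 (68.9%) had at least 1 present probe. A further 4722 symbols had no probe above background on any control array, and 1410 fell in between. Of the 4984 symbols with several probes, 3144 had all of them present and 841 had some present, so the call of a gene can rest on which probe is read. Below, a gene is shown by its brightest probe, and a gene that is not well above background has only an upper bound, not a level. The 68.9% of all named genes is the share beside which the count of present genes in each list can be read.

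The 4 marker genes of the line were all present. *TLX1* on chromosome 10, the homeobox oncogene that defines the subtype, read 11.34, 11.30 and 11.33 on control replicates 1, 2 and 3 (mean 11.32 ± 0.02, SD, n = 3). The 3 arrays were nearly equal, and its SD was larger than that of only 1.22% of the present probes. *CD3E* on chromosome 11, a signalling chain of the T cell receptor complex, read 11.42, 11.49 and 11.61 (11.50 ± 0.10, SD, n = 3), with replicate 3 highest. *IKZF1* on chromosome 7, the lymphoid transcription factor Ikaros, read 14.34, 14.58 and 14.00 (14.31 ± 0.29, SD, n = 3), and its lowest array was replicate 3. *NOTCH1* on chromosome 9, the receptor that drives T cell commitment, read 11.11, 10.88 and 11.20 (11.06 ± 0.16, SD, n = 3), and its other probe averaged 10.54. On the 6 *PHF6* siRNA arrays *TLX1* ranged from 10.99 to 11.25, *CD3E* from 10.92 to 11.65, *IKZF1* from 13.78 to 14.45 and *NOTCH1* from 10.51 to 10.85. The control arrays of *TLX1* and of the brighter *NOTCH1* probe lay above all siRNA arrays, while those of *CD3E* and *IKZF1* overlapped them. How many of all present probes separate in this way was not counted, so it is not read as a result about these genes. None of the 4 passed the test between the groups that leaves out the replicate number (limma, adjusted p from 0.599 for *NOTCH1* to 0.893 for *IKZF1*). With the replicate number in the fit none passed either.

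Of 20 genes that define T-ALL subtypes, 10 were present (50%, beside 68.9% of all named genes). Besides *TLX1* these were *NKX2-5*, *HOXA10*, *HOXA9*, *HOXA5*, *LYL1*, *SPI1*, *TAL2*, *TLX2* and *LMO1*. The highest signal of the list came from *NKX2-5*, a homeobox gene known from heart development and from a rare T-ALL translocation, which read 16.58, 16.39 and 16.36 (16.44 ± 0.12, SD, n = 3) and ranked at 322 among all present probes. It is measured by 1 probe, which was well above background on all 6 siRNA arrays too (15.99 to 16.45). No second probe was at hand to compare with it. *HOXA10* read 14.07, 13.57 and 13.82 (13.82 ± 0.25, SD, n = 3) on 1 probe, while its other probe lay at the floor with a mean of 4.66. The *HOXA9* pair was split in a similar way, with means of 9.69 and 5.19, whereas *HOXA5* had 1 probe with a mean of 9.35.

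*LYL1*, a relative of *TAL1*, had a mean of 8.46 ± 0.27 (SD, n = 3) and *SPI1*, which encodes PU.1, had 6.88 ± 0.15. *TAL2* (6.24), *TLX2* (5.72) and *LMO1* (5.53) were present but close to the floor. *HOXA11* (5.0), *MEF2C* (4.96) and *LMO2* (4.74) were above background on 1 control array each. The other 7 genes of the list were not well above background on any control array: *TAL1* averaged 4.83, *NKX2-1* 4.68, *OLIG2* 4.64, *HOXA13* 4.55, *LMO3* 4.54, *NKX2-2* 4.53 and *TLX3* 4.43. All of these 7 lie within or just below the range of the probes that were above background nowhere.

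**Figure D2:**
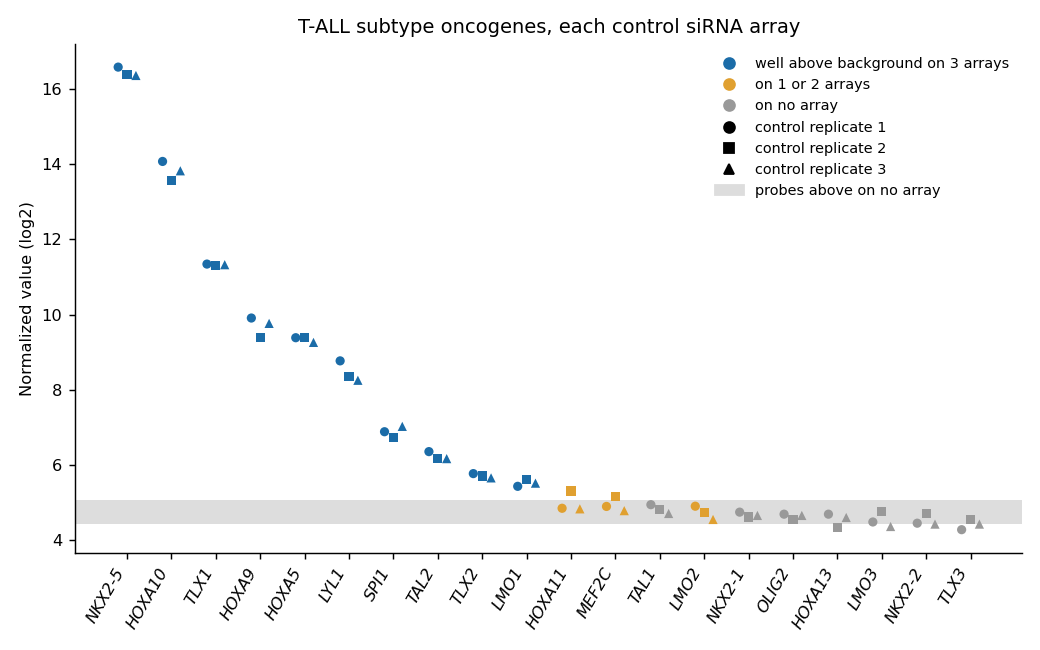
Normalized value (log2, vertical axis) of 20 T-ALL subtype oncogenes on each control siRNA array, with circles, squares and triangles for replicates 1, 2 and 3. Blue marks genes well above background on 3 arrays, orange on 1 or 2 and grey on none; *NKX2-5*, *HOXA10* and *TLX1* stand above 11, and *TLX3* and *TAL1* lie at the grey band of probes above background nowhere.

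Other oncogenes of T-ALL were mostly present, 21 of 24 (87.5%, beside 68.9% of all named genes). The brightest were *MYB* (16.09 ± 0.36, SD, n = 3), a transcription factor of blood progenitors, *CDK6* (15.05 ± 0.12), the cyclin-dependent kinase of G1, and *MYC* (14.18 ± 0.14). Both partners of the fusion of this line were present: *ABL1* read 12.16, 12.07 and 12.08, and *NUP214* read 10.59, 10.54 and 10.69. The second *ABL1* probe averaged 6.02, and whether a probe reads the fusion or the normal allele was not tested. *CCND1* (4.69) and *MYCN* (4.50) were not well above background, *ZEB2* (5.01) was so on 1 array, and *CCND3*, the D cyclin of thymocytes, had a mean of 14.17. *CCND2* varied, with 7.76 on replicate 1 against 6.58 and 6.66.

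Of the tumour suppressors lost in T-ALL, 21 of the 23 genes with a probe were present (91.3%, beside 68.9% of all named genes). *RPL5* (17.75), *RPL10* (17.70) and *LEF1* (16.12) gave the highest signals, the first pair being ribosomal proteins and *LEF1* a partner of beta-catenin. The exceptions were *RB1* (4.69, 4.57 and 4.75 on replicates 1, 2 and 3) and *CDKN2B* (4.70, 4.59 and 4.77), an inhibitor of CDK4 and CDK6. Each has 1 probe, which was not well above background on any of the 6 siRNA arrays either. *CDKN2A*, the neighbour of *CDKN2B*, was present on 1 probe (9.18 ± 0.14, SD, n = 3), and its other probe averaged 4.88. *PHF6*, the target of the siRNAs, was present in the control cells at 11.08, 11.16 and 10.88, above the range of 9.13 to 9.73 on the siRNA arrays.

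The T cell identity of the cells was read on 4 lists. All 5 genes of the CD3 and pre-T cell receptor list with a named probe were present, namely *CD3D* (16.70), *CD3G* (14.52), *CD247* (13.91), *CD3E* (11.50) and *PTCRA* (8.58), which encodes the pre-T cell receptor alpha chain. The constant genes of the receptor chains themselves had no named probe. All 16 genes of T cell receptor signalling were present, with *LAT* (14.95), the adaptor at the receptor, *LCK* (13.73), its kinase, and *FYN* (13.39) highest. Their median was 11.83, compared with 7.84 over all named genes, which is the value beside which the medians below can be read.

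Of the T cell surface markers 23 of 26 were present (88.5%, beside 68.9% of all named genes). *CXCR4*, the receptor for CXCL12, led with 15.67, followed by *TFRC* (15.44), the transferrin receptor, and *CD4* (14.37). *CD5* (13.59), *CD7* (13.30) and *CD8A* (12.77) were well above the floor, while *CD8B* was present at 5.71, so the co-receptor chains of CD8 gave signals far apart on probes that may bind differently. *CTLA4* (5.33), *IL2RA* (5.27) and *CD69* (4.91), which rise when T cells are activated, were above background on only 1 or 2 control arrays. None of the 26 genes lacked the well-above-background flag on all 3 control arrays.

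Of the T-lineage transcription factors 21 of 24 were present, with *LEF1* (16.12), *MYB* (16.09) and *RUNX3* (14.83) highest and a median of 12.01. *GATA3* had a mean of 12.99, *TCF7* 13.78 and *BCL11B* 13.60, and these 3 set T cell fate in the thymus. *HHEX* (4.60) and *ERG* (4.56), which are active in early progenitors, were not well above background.

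Genes of cortical thymocytes were present in 13 of 15 cases, with *CD4* (14.37), *TCF7* (13.78) and *CD8A* (12.77) highest. *CD1B* (11.43), *CD1A* (10.50), *CD1E* (9.94) and *CD1C* (5.80), surface molecules that present lipids, were present, and *CD1D* (5.12) was not well above background on any control array. The recombinase genes *RAG1* (8.18) and *RAG2* (6.94) and *DNTT* (9.70), the enzyme that adds bases at receptor joints, were present. *ELOVL4* was above background on replicate 2 alone (5.81 against 4.78 and 4.89).

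Of 15 genes of mature and effector T cells 7 were present (46.7%, beside 68.9% of all named genes), and none reached the median of the present genes. The count rests on the flag, with 11 present by the significance flag and 10 by the limit from the negative control spots. The highest were *PDCD1* (8.32), *KLRG1* (7.72) and *LAG3* (7.69). The cytokine genes *IL4* (4.84), *IFNG* (4.69) and *IL2* (4.65), the chemokine *CCL5* (4.80) and the granzymes *GZMK* (4.72) and *GZMA* (4.69) were not well above background, whereas *GZMB* (6.84) was present.

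In the Notch pathway the receptors and the nuclear machinery were present and most ligands were not. *NOTCH3* (13.20), *NOTCH2* (12.75), *NOTCH1* (11.06) and *NOTCH4* (6.07) were present, as were *RBPJ* (13.36), the DNA-binding partner of the cleaved receptor, its coactivator *MAML1* (8.79), and the protease *ADAM10* (9.75). Of the ligands *JAG2* (4.85), *DLL4* (4.73) and *JAG1* (4.71) were not well above background, and *DLL1* and *DLL3* were so on 2 and 1 arrays. Among the targets *DTX1* read 12.44, 11.50 and 11.75, with replicate 1 highest, and *HES1* read 9.03, 9.43 and 9.27. *TRIB2* (8.87) and *HES5* (5.58) were also present, *HEY1* (5.40) and *NRARP* (5.21) were above background on 2 arrays each, and *HES4* (4.93) and *HEY2* (4.54) on none. In all 12 of the 21 genes were present (57.1%, beside 68.9% of all named genes).

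Markers of other cell types were present in part, and the genes that stood out were few in each list. Among 18 B cell markers 9 were present (50%, beside 68.9% of all named genes). The highest were *CD79A* (12.56), a chain of the B cell receptor, *POU2AF1* (12.37), a coactivator of octamer-binding factors, and *IGLL1* (11.95), part of the surrogate light chain of pre-B cells. *CD79B* (8.72), *CD72* (8.27), *VPREB3* (8.08), *VPREB1* (5.98) and *FCER2* (5.36) were among the others. *PAX5* (4.87) and *EBF1* (4.80), the factors that set B cell fate, were not well above background, and the median of the list was 5.37.

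Of 18 myeloid genes 9 were present (50%, beside 68.9% of all named genes). The brightest was *PRSS57*, a serine protease of neutrophil granules, at 14.74, 14.53 and 14.14 (14.47 ± 0.30, SD, n = 3). The other 8 present genes were far lower, from *CSF3R* (8.03), *CD14* (6.64), *FCN1* (6.36) and *CD68* (6.02) to *ITGAM* (5.98), *CEBPE* (5.71), *ANPEP* (5.47) and *PRTN3* (5.31). With a minimum of 6 added to the call, chosen after the values were seen, 5 of the 9 myeloid genes remained. *CD33*, *CEBPA*, *CD163*, *S100A8* and *S100A9* were above background on no control array.

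Natural killer (NK) cell genes were present in 8 of 14 cases (57.1%, beside 68.9% of all named genes). *NKG7*, a protein of cytotoxic granules, read 15.22, 15.25 and 15.14 (15.20 ± 0.06, SD, n = 3), and *IL2RB* (11.93), *FCER1G* (10.53), *NCR3* (10.14), *TYROBP* (7.60), *GNLY* (6.75), *NCR1* (5.94) and *KLRC1* (5.65) were present below it. The receptors *NCAM1*, *KLRD1*, *KLRF1*, *KLRK1*, *FCGR3A* and *CD160* were not well above background, with means from 4.38 to 4.77 between *KLRK1* and *KLRD1*.

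Of 18 erythroid and megakaryocyte genes 13 were present (72.2%), near the 68.9% of all named genes. Not all of the 13 are named here, so the values that follow do not bound the list. Among them were *EPOR* (8.62), the erythropoietin receptor, *GP9* (8.37), *HBG1* (8.30), *KLF1* (8.21), *SLC4A1* (7.33), *HBD* (6.46), *ALAS2* (6.15), *ITGA2B* (6.13), *HBA2* (5.84), *PF4* (5.59), *GYPB* (5.58) and *GP1BA* (5.32). *GATA1* (4.78), the factor that drives red cell fate, was not well above background. Globin genes have close copies, so the probes for *HBG1* and *HBA2* may also read their neighbours.

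Of 16 stem and progenitor genes 4 were present (25%), the lowest share of the lists. *LYL1* (8.46), *HOPX* (7.88), *CRHBP* (5.59) and *CD34* (5.37) were present, the last on 1 of 2 probes. *KIT* (4.73) and *FLT3* (4.80), growth factor receptors of progenitors, were above background on no control array, and neither was *MEIS1* (4.71), a cofactor of HOXA proteins. Of the markers of non-blood tissues 10 of 22 were present (45.5%, beside 68.9% of all named genes). They were *PECAM1* (11.05), which leukocytes also make, *KRT8* (9.66), *KRT18* (8.66), *CDH5* (7.48), *APOA1* (7.18), *INS* (5.99), *KRT19* (5.94), *ACTA2* (5.81), *VWF* (5.59) and *MYH7* (5.52). Of these 10 only the first 5 reached 6, and the collagens, *EPCAM* and *CDH1* were not well above background.

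**Figure D3:**
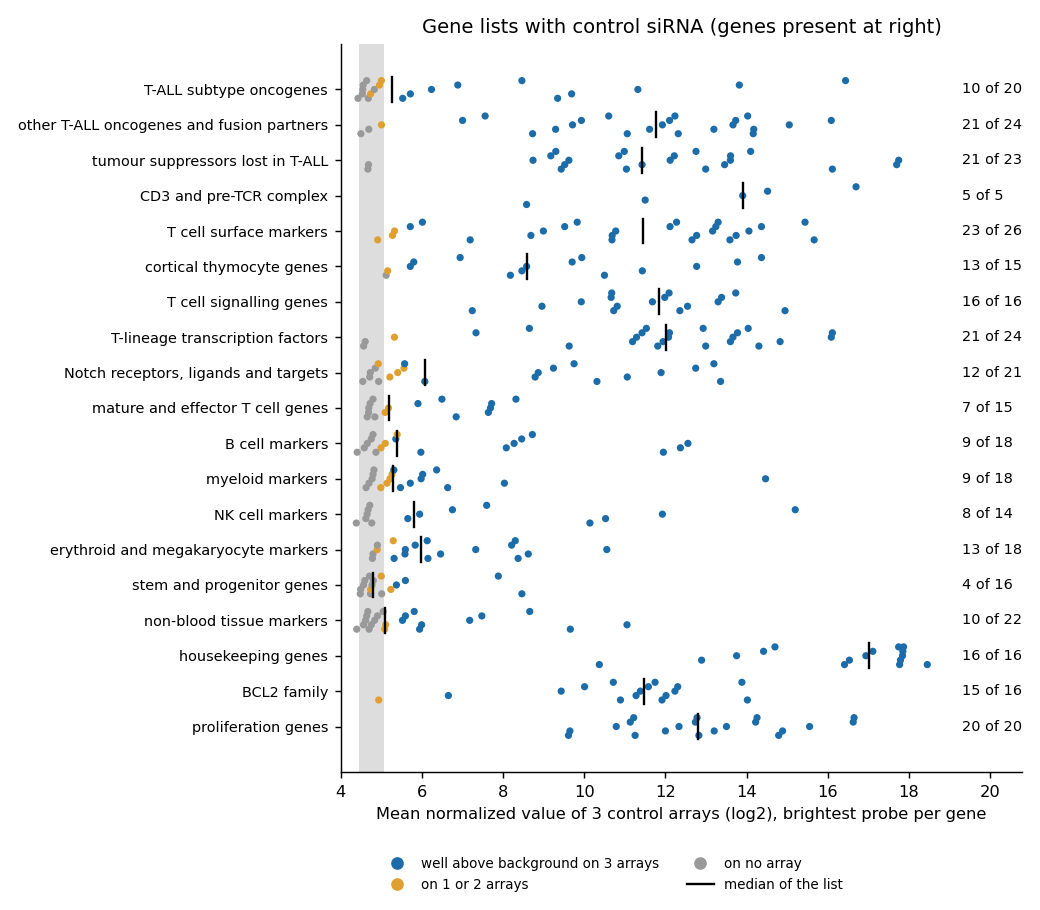
Mean normalized value of the control arrays (log2, horizontal axis) of each gene in 19 lists, by its brightest probe, with blue, orange and grey for genes well above background on 3, on 1 or 2 and on no control arrays. Black bars mark list medians and the grey band the probes above background nowhere; 16 of 16 housekeeping and 20 of 20 proliferation genes were present against 4 of 16 stem and progenitor genes.

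Genes of survival and growth were present almost throughout. Of the BCL2 family 15 of 16 were present, led by *PMAIP1* (14.02) and *BID* (13.89), which promote cell death, and *BCL2L11* (12.30), which encodes BIM. *BCL2* itself had a mean of 12.24 ± 0.27 (SD, n = 3), *BCL2A1* 11.75, *MCL1* 11.28 and *BCL2L1* 9.43, and these restrain cell death. *HRK* (4.94) was above background on 1 array. All 20 proliferation genes were present, with *MCM7* (16.65), a subunit of the replicative helicase, *TYMS* (16.63), which makes thymidylate, and *MCM3* (15.56) highest. All 16 housekeeping genes were present too, from *TBP* (10.37) to *EEF1A1* (18.45), and their median SD over the control arrays was 0.09.

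The highest signals of the control cells came largely from the translation machinery. Among the 20 named genes with the highest means, 9 encode ribosomal proteins, among them *RPS2* (18.84), *RPS20* (18.52), *RPS27* (18.46), *RPLP1* (18.42), *RPL13* (18.35), *RPL19* (18.32), *RPL23A* (18.30) and *RPS29* (18.28). *RNA28SN5* (18.83), a ribosomal RNA, *EEF1A1* (18.45), the elongation factor that delivers transfer RNA, *PTMA* (18.33), which encodes prothymosin alpha, and the histone gene *H4C3* (18.59) were among them. The other 7 symbols were *ZNF865* (18.97), *SLC66A1* (18.77), *GPR155* (18.53), *FAM74A4* (18.44), *AS3MT* (18.34), *CYP2W1* (18.31) and *FUT6* (18.28). The highest of all, *ZNF865*, read 19.03, 19.03 and 18.83 on 1 probe and averaged 7.51 on its other probe. *GPR155* had other probes at 9.43 and 9.17, *AS3MT* at 6.24 and *FUT6* at 5.20. *SLC66A1*, *FAM74A4* and *CYP2W1* have 1 probe each. The places of these 7 symbols rest on 1 bright probe each, and what those probes bind was not tested. *RPL23A* and *RPS29* also had a probe more than 5 units lower (12.35 and 12.48), but each had further bright probes, at 18.16 and 16.91 for *RPL23A* and at 17.63 and 17.39 for *RPS29*.

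Messenger RNAs of ribosomal proteins and elongation factors are known to begin with a run of pyrimidines, through which growth signals set their translation. The promoters of 3 of the genes above are shown because they carry such letters at the start. They come from RefSeq (GRCh38.p14), are written 5′ to 3′ on the strand of the gene and run from 80 bases before the start to 20 bases after it, and capitals mark CTTTC or CTTTT between base -10 and base 15 around the start. *RPLP1* lies on the plus strand at chr15:69452738-69452837, *RPS27* on the plus strand at chr1:153990682-153990781 and *EEF1A1* on the minus strand at chr6:73521013-73521112.
RPLP1: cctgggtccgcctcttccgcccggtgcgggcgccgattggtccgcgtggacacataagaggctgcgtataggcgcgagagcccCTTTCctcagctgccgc
RPS27: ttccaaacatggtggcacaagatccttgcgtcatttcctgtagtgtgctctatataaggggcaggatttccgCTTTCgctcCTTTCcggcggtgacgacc
EEF1A1: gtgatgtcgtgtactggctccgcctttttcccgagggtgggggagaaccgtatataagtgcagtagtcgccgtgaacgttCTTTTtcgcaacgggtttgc
Of the 84 ribosomal protein genes present in the control cells, 68 had a promoter in the RefSeq table, and 38 of these (55.9%) held CTTTC or CTTTT in that window on the strand of the gene, compared with 6.45% of the 27305 symbols in the table, 1 promoter each. The 2 motifs share the letters CTTT, the opposite strand was not searched, and *RPL19*, with a mean of 18.32, held neither. A match describes these letters and is no measured start site. The same comparison over all present genes is void, because fewer than 80% of them (10778 of 13590) had a promoter in the table.

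The control arrays resembled each other closely. Over the present probes the correlation between arrays, which share design and normalization, was 0.994 for replicates 1 and 2, 0.993 for 1 and 3 and 0.992 for 2 and 3, and the median SD of a probe was 0.178 with a 95th percentile of 0.415. The brighter probes varied about as much as the dimmer ones, with median SDs of 0.172 and 0.184. In 532 probes (1.84%) the lowest and highest array lay more than 1 unit apart, and in 12 probes more than 3 units. The least variable bright genes were *PPT1* (12.81, 12.81 and 12.80), *GDE1* (11.58, 11.59 and 11.59), *SNRPE* (14.03 on each array), *C5orf15* (11.05, 11.04 and 11.04) and *RRM2B* (8.67, 8.66 and 8.66). On the 6 siRNA arrays 27622 of the present probes (95.5%) were well above background throughout. The 1296 that were not had a median of 5.43 on the control arrays, near the floor, but the brightest of them averaged 16.41. A probe whose spots were all outliers on an array also lacks the flag, and whether this held for that brightest probe was not tested.

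**Figure D4:**
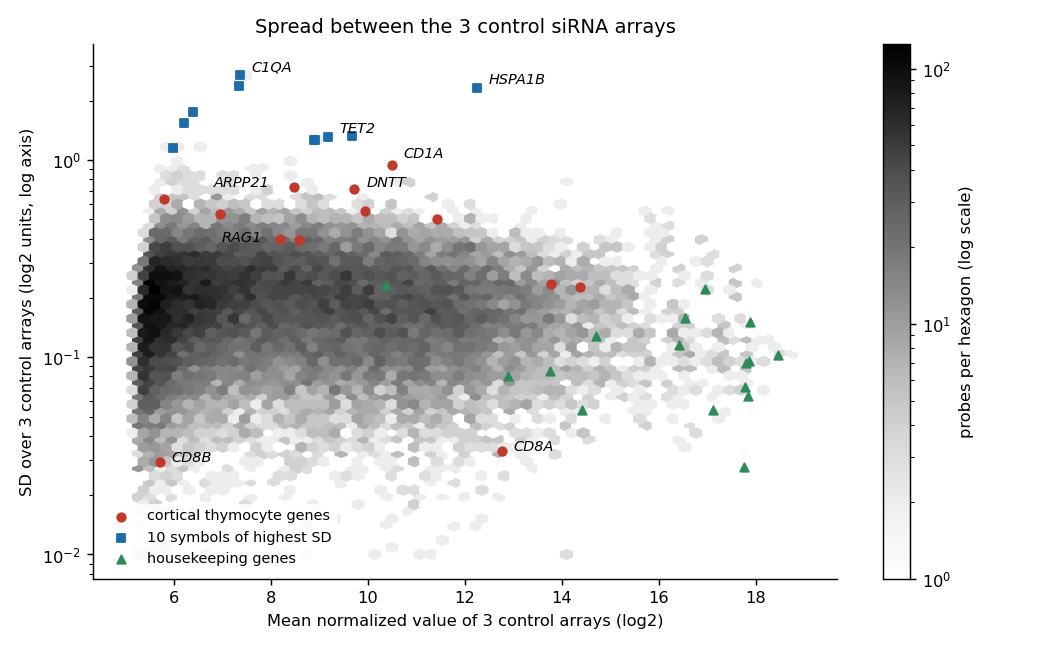
SD over the 3 control arrays (vertical log axis, log2 units; values under 0.01 are drawn at 0.01) against the mean normalized value (log2) of each present probe, shaded by the number of probes. Red points are the 13 present cortical thymocyte genes, blue squares the 10 named genes of highest SD and green triangles the housekeeping genes; *CD1A* (SD 0.94) lies high and *CD8A* (0.03) low within the same list.

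The largest differences between the control arrays fell on a small set of genes. Among named genes the 10 probes with the highest SD were those of *C1QA*, *HSPA1A*, *HSPA1B*, *LMOD2*, *TOM1L2*, *NUMBL*, *TET2*, *S100P*, *SLC6A9* and *LAMA4*. They were chosen by the control arrays, so whether such differences recur was read on the 6 *PHF6* siRNA arrays, in which replicate numbers 1 to 3 were compared with the siRNA as a covariate (limma, moderated F test, Benjamini-Hochberg adjustment over all present probes). These arrays share replicate numbers and slides with the control arrays, so a recurrence on them concerns the same replicates and not new ones. At an adjusted p under 0.05 10395 of 28918 probes (35.9%) differed by replicate number. Of the 100 most variable control probes 68 did, and 71 had their highest value under the same replicate number in both sets of arrays, compared with 61.3% of all present probes. Without replicate 3 of the siRNA arrays, which leaves 1 slide, the count over all probes was 3100, and without replicates 1 or 2 it was 7618 or 11439.

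*HSPA1A* and *HSPA1B*, near-identical neighbouring genes for the heat shock protein HSP70, moved together. *HSPA1A* read 5.09, 9.81 and 7.10 on control replicates 1, 2 and 3, and *HSPA1B* read 10.02, 14.68 and 12.07. Replicate 1 was lowest and replicate 2 highest in both. On the siRNA arrays *HSPA1B* followed the same order, with 9.63, 15.56 and 13.26 for siRNA1 and 9.75, 15.33 and 12.29 for siRNA2 (limma, adjusted p = 0.0002 for replicate number). The probes may read either copy. *DNAJB1*, a cofactor of HSP70 that was picked after its values were seen, showed the same order with 11.25, 13.39 and 12.30 (limma, adjusted p = 0.0005).

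The promoters of this pair are shown because the genes move together. Both are on the plus strand (RefSeq, GRCh38.p14), at chr6:31815463-31815562 for *HSPA1A* and at chr6:31827658-31827757 for *HSPA1B*, again from 80 bases before to 20 bases after the start, with capitals for TATAAA between base -45 and base -16.
HSPA1A: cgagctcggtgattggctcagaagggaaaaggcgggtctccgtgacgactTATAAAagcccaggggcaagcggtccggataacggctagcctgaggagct
HSPA1B: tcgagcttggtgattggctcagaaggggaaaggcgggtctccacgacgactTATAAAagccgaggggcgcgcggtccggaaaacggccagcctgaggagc
Both hold TATAAA in that window on the strand of the gene, as do 2.63% of the 27305 symbols in the table; the opposite strand was not searched.

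*TET2*, an enzyme that oxidises methylated DNA, was variable on 1 of its 4 probes. That probe read 7.71, 10.22 and 9.61 on the control arrays and 8.09, 10.79 and 10.07 on the siRNA1 arrays (limma, adjusted p = 0.0002 for replicate number). The other 3 probes had SDs from 0.10 to 0.25 over the control arrays. *S100P*, a calcium-binding protein, ran the other way with 10.24, 8.69 and 7.72 (limma, adjusted p = 0.0007), and so did *SLC6A9*, a glycine transporter, with 10.12, 8.98 and 7.59 (limma, adjusted p = 0.0012). Other probes with replicate 1 highest and replicate 3 lowest, picked after their values were seen, were those of *SMOX*, *SLC43A1*, *CHAC1* and *CTSG*, and *GBP2*, an interferon-induced gene, ran from 6.28 on replicate 1 to 8.43 on replicate 3. Each of these 5 passed the test by replicate number on the siRNA arrays, which does not look at the order of the replicates. The siRNA means of *SMOX*, *SLC43A1* and *CTSG* kept the order of the control arrays. *CHAC1* was lowest under replicate 2, with siRNA means of 11.00, 9.88 and 10.05 for replicates 1, 2 and 3. *GBP2* had siRNA means of 6.47, 8.75 and 8.79, so replicates 2 and 3 were nearly equal.

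Another 4 of the 10 most variable genes stood out on 1 control array alone. *C1QA*, a chain of complement C1q made by macrophages, read 10.49 on control replicate 3, against 5.80 and 5.81 on replicates 1 and 2 and 5.53 to 5.84 on the 6 siRNA arrays. *LMOD2* read 8.44 on replicate 2 against 5.35 and 5.41, *TOM1L2* 7.99 on replicate 3 against 5.20 and 5.44, and *LAMA4* 7.30 on replicate 2 against 5.24 and 5.37. None of the 4 differed by replicate number on the siRNA arrays (limma, adjusted p from 0.051 for *LMOD2* to 0.54 for *TOM1L2*). Over all present probes, 10 had 1 control array more than 3 units above the median array. *NUMBL* passed the test on the siRNA arrays (limma, adjusted p = 0.011), but there replicate 1 was highest, whereas among the control arrays it was replicate 2 (9.33, 11.13 and 8.55).

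The cortical thymocyte genes held the largest share of variable genes of any list. Of the 13 present genes 9 (69.2%) had an SD among the highest 10% of all present genes (0.343 or more), and the next list, the T-lineage transcription factors, had 7 of 21 (33.3%). These genes also had a median SD of 0.504, against 0.173 over all present genes. *CD1A* read 9.44, 11.25 and 10.81 on replicates 1, 2 and 3, *DNTT* 9.18, 10.52 and 9.42, and *ARPP21*, an RNA-binding protein, 7.89, 9.29 and 8.22. Replicate 1 was lowest in all of these and replicate 2 highest. Over the list, replicate 1 was lowest in 9 of the 13 genes and highest in 0, and replicate 2 was highest in 10. Without control replicate 1 or without control replicate 2, 4 of the 13 genes were among the highest 10%, and 8 were without replicate 3.

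The same list on the *PHF6* siRNA arrays gave a similar picture, with 10 of 13 genes called by replicate number (76.9%, beside 33.7% of all present genes by their brightest probe; limma, adjusted p under 0.05). There replicate 1 was lowest in 11 genes and highest in 0, while replicate 3 was highest in 8 and replicate 2 in 5. Without replicate 1 of the siRNA arrays 6 genes were called. *CD8A* (SD 0.03), *CD8B* (0.03) and *CD4* (0.23), which the list shares with the surface markers, were not called, and the SDs of the CD8 pair were far below the median of the present genes. Of the T-lineage transcription factors 10 of 21 were called by replicate number, and of the subtype oncogenes 0 of 10 were called and 0 of 10 were among the variable genes. The genes in these lists were chosen with earlier results of these arrays known, and since replicate 3 was alone on its slide, slide and replicate 3 cannot be told apart.

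**Figure D5:**
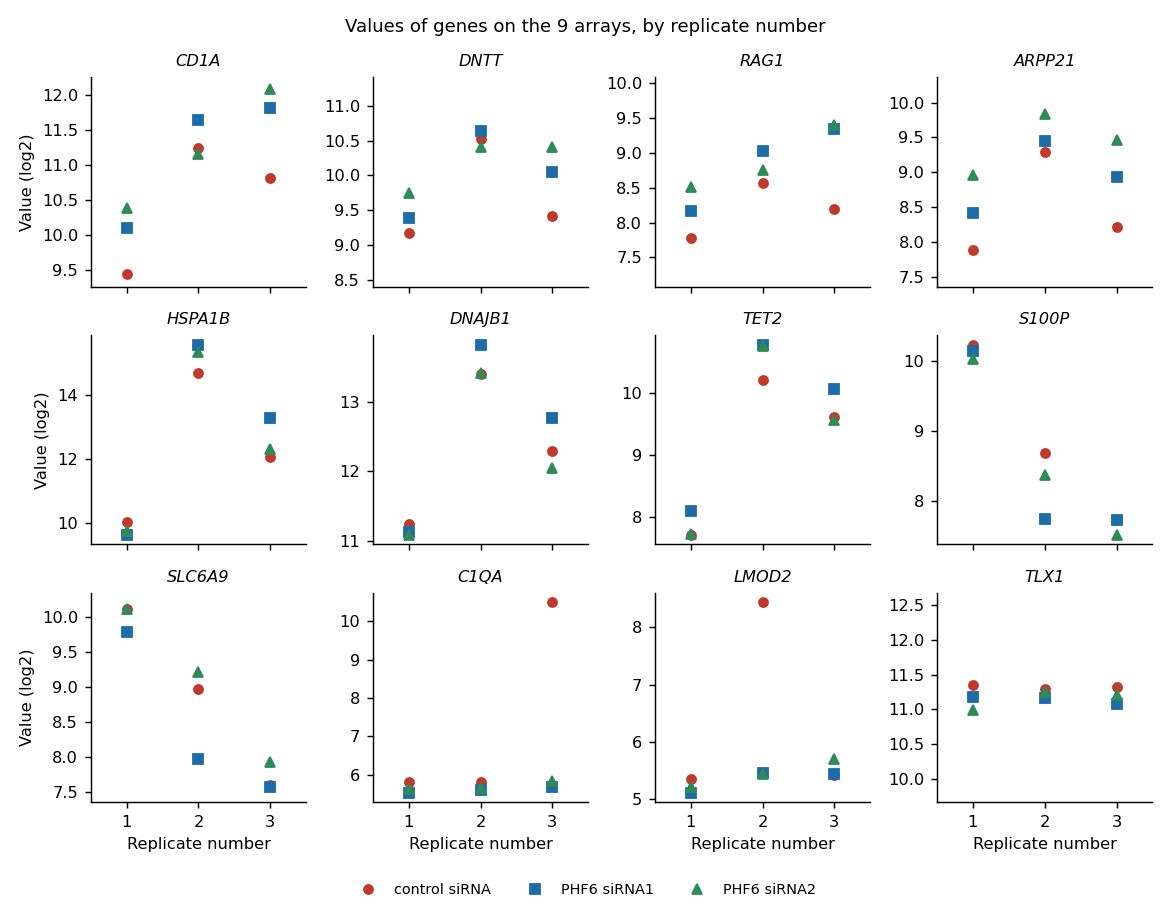
Normalized value (log2, vertical axes, which differ between panels) of 12 genes on the 9 arrays against the replicate number, with red circles for control siRNA, blue squares for *PHF6* siRNA1 and green triangles for *PHF6* siRNA2. *CD1A* and *HSPA1B* are lowest under replicate 1 in all 3 groups, *C1QA* and *LMOD2* are high on 1 control array only, and *TLX1* stays between 10.99 and 11.34.

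In a fit that leaves out the pairing by replicate number, few probes differed between the control arrays and the *PHF6* siRNA arrays. The fit with that pairing, given below, called 868. Of 33625 probes tested (those well above background on at least 3 of the 9 arrays), 3 (0.00892%) passed an adjusted p of 0.05 in limma, and 2513 had an unadjusted p under 0.05. All 3 were higher with control siRNA. *IGLL1* read 12.04, 12.00 and 11.81 on the control arrays against 9.79 to 10.55 on the siRNA arrays, and siRNA minus control was -1.86 (SE 0.15; limma, adjusted p = 0.0025). These values are those of its brighter probe. The other *IGLL1* probe, with a mean of 11.59 on the control arrays, was tested too and was not among the 3. *PHF6*, the check on the siRNAs, differed by -1.71 (SE 0.14; limma, adjusted p = 0.0025), with no overlap between the groups. The third was probe A_33_P3395675, for which no gene symbol was matched, at -1.60 (SE 0.16; limma, adjusted p = 0.013). Without control replicate 2 no probe passed, at 2749 unadjusted.

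With the replicate number as a block 868 probes passed (2.58%), of which 550 (1.64%) were higher and 318 (0.946%) lower with *PHF6* siRNA. This count was 24, 9 or 928 without replicate number 1, 2 or 3. Of the 262 list genes tested 17 passed with the block (6.49%), 4 higher and 13 lower with *PHF6* siRNA, against 2 without it. After *IGLL1* and *PHF6*, the largest differences among the 13 were those of *PRSS57* (siRNA minus control -1.45, SE 0.11; limma with block, adjusted p = 0.0010), *NCR3* (-1.0, SE 0.10; adjusted p = 0.0039) and *CD7* (-0.76, SE 0.11; adjusted p = 0.014). *IL7R*, the receptor for interleukin 7, was lower in the control cells (1.23, SE 0.14; limma with block, adjusted p = 0.0049), as were *KRT18*, *ARPP21* and *RAG1*. Of the subtype oncogenes and T-lineage transcription factors that were tested, none passed with or without the block.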

How the data were processed

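RNA of 9 ALL-SIL cultures (3 control siRNA, 3 *PHF6* siRNA1, 3 *PHF6* siRNA2) was hybridized by the authors to 9 custom Agilent arrays in 1 colour. The deposited scanner files hold fluorescence intensity per spot, read by the authors with Agilent Feature Extraction (10.5.1.1 in the file headers, 9.1 in the submitters' processing notes) and not normalized between arrays, with other deposited columns that flag spots as well above background, significant, outlying or saturated. For the 57176 probes there is in addition a deposited matrix of log2 values, which the authors normalized with VSN (variance stabilization). Which intensities entered it is not stated. Across probes it correlated with log2 processed intensity at 0.970 to 0.980 on each array.

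Levels, ranks and spreads use the deposited log2 table, and detection uses the well-above-background flag. A probe was above background on an array when any of its spots that was no outlier carried the flag. A probe whose spots were all outliers counted as not above background. No spot was saturated. Symbols came from matching transcript accessions to a RefSeq table, and a gene is shown by its probe with the highest mean on the control arrays. There is no depth on an array, and precision is set by having 3 arrays per group and by how far a signal exceeds background. The replicates are called independent without further detail, so p-values measure the spread between these samples.

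The siRNA comparison was fitted on all 9 arrays by limma 3.58.1 under R 4.3.3 (lmFit and eBayes, Benjamini-Hochberg adjustment, threshold 0.05), after the code was tested on simulated data. Replicate number was tested by a moderated F test on the 6 siRNA arrays, with siRNA as a covariate and 2 residual degrees of freedom. Probe counts per array were compared by an exact permutation test in scipy 1.17.1. Deviations from group means correlated at 0.31 to 0.74 in the 9 pairs of arrays with the same replicate number and at -0.56 to 0.13 in the 18 other pairs, so the numbers in the labels pair the samples, and fits with the replicate block are given where they change a count.

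The members and the 20 gene lists were chosen with earlier results of these data known. By rule the text names every series marker and subtype oncogene, the 3 brightest present genes of the other lists with their exceptions, every present gene of other lineages, the 20 brightest, 10 most variable and 5 least variable bright symbols, and the probes past the threshold. Some genes that the rule names are not reported here. Other named genes are said to have been picked after their values were seen or illustrate a list. Alternatives were other detection flags, background limits, scalings, filters, blocks and each array left out.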

Additional observations from a re-analysis of the deposited data

How the results depend on the processing

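Calls of presence depended on the flag. Present probes numbered 27622 to 37288 over 9 alternatives and list genes 213 to 268 over 11, all within 1.5 times of 28918 and 238. The significance flag gave the 37288 probes. It raised the effector T cell genes from 7 to 11, the B cell genes from 9 to 11 and the myeloid genes from 9 to 13. The erythroid and megakaryocyte genes rose from 13 to 17, the non-blood genes from 10 to 14 and the stem and progenitor genes from 4 to 6. The 16 housekeeping and 20 proliferation genes stayed the same. A minimum value of 6 left 5 myeloid, 5 non-blood and 2 stem and progenitor genes. The median SD ranged from 0.129 to 0.215, and 18 to 20 of the 20 brightest symbols were shared between scalings. The comparison with *PHF6* siRNA was the least stable. Against 3 probes, it called 5 with scaling to the 75th percentile, 5 with normexp and quantile normalization, 18 with the slide as a block and 868 with the replicate block. That count depends on the pairing, and with the replicate block leaving out a replicate number gave 9 to 928, with 24 between them. Leaving out 1 array without the block gave 0 to 3 probes (0 without control replicate 2). Replicate number called 3100 to 11439 probes when 1 number was left out of the siRNA arrays. Without replicate number 1 of the siRNA arrays *NUMBL*, *S100P*, *CHAC1* and *GBP2* no longer passed, and without number 3 *CTSG* did not, while *LMOD2* passed with the 75th percentile scaling and without number 2. Both *IGLL1* and *PHF6* lost their call in 1 of 20 settings (without control replicate 2) and probe A_33_P3395675 in 4. The difference in detected probes per array kept its sign under all 5 alternatives (p from 0.262 to 0.643, permutation tests; 0.519 with the replicate block). The minimum of 6 and the leave-outs with the block were added after the data were seen. The cause of each change was not tested. With 3 control arrays, differences near the median SD and signals near the floor are at the limit of what these arrays resolve.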
